A study of Mus musculus with 2 samples.

Results

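Natural killer (NK) cells in interferon response are NK cells that carried transcripts of at least 3 of 6 interferon-induced genes, namely Ifit1, Ifit3, Rsad2, Isg15, Usp18 and Oasl1. A cell counted as a gated NK cell when its barcode had at least 500 genes, at most 10% mitochondrial UMIs (unique molecular identifiers, each counting 1 captured transcript), at least 3 UMIs over the NK receptor genes Ncr1, Klrb1c and Klrk1, no UMI of the T cell gene Cd3e and at most 1 UMI over the macrophage and dendritic genes C1qa, C1qb, C1qc and H2-Aa. Of 22400 deposited barcodes, 138 cells met the full rule, and they are called members below. They were 60 of 9174 gated NK cells of the knockout library and 78 of 10438 of the control library. The other 9114 and 10360 gated NK cells of the same 2 libraries are called the other NK cells. Because the rule used the 6 genes in these same cells, and any gene that varies with them is bound to differ as well, members against other NK cells is a description throughout and was not tested.

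Type I interferons bind a receptor made of Ifnar1 and Ifnar2 chains, whose kinases Jak1 and Tyk2 activate transcription factors, Stat2 among them. With Irf9 these form a complex that binds interferon-stimulated response elements in the promoters of antiviral genes. Interferon gamma acts through its own receptor and shares part of these targets. In NK cells, type I interferon is known for raising cytotoxicity and for priming the cells early in viral infection.

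The knockout library came from NKp46CreEP3F/F mice and the control library from EP3F/F mice, both on C57BL/6. In that notation both alleles of the prostaglandin E2 receptor gene Ptger3 (EP3) are flanked by loxP sites in both groups, and in the knockout the Cre recombinase is driven by NKp46 (Ncr1), a receptor of NK cells and related innate lymphoid cells. The control label names no Cre, and neither label gives an age or a sex. NK cells carrying both CD27 and CD11b were sorted from spleen, with 2 mice per genotype pooled, and each pool gave 1 droplet library of 3' tags. With 1 library per genotype no difference between genotypes could be tested. Every interval below is a 95% interval for counting error within the libraries, and mice, pools and libraries cannot be told apart from the genotype.

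The knockout library held 42795121 UMIs over 10615 barcodes and the control library 69853026 over 11785. Members had a median of 4192.5 UMIs per cell in the knockout (lowest 2562, highest 13228) and 7229 in the control (lowest 2819, highest 18986), against 3837 and 5831.5 in the other NK cells of the knockout and the control. Mitochondrial UMIs had a median of 3.63% in knockout members and 3.29% in control members, against 3.89% and 3.47% in the other NK cells. No cells were removed as doublets. Of the members, 2 knockout cells and 1 control cell had more UMIs than 99% of the other NK cells of their library. The libraries shared 33 barcode sequences, among them that of 1 knockout member and of no control member. Ptger3, the targeted gene, had no UMI in any gated knockout NK cell, and in the control 1 UMI in members and 12 in the other NK cells; where the deleted exons lie against the 3' tags is not given, so this is no check of the deletion.

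Members were rare in both libraries, at 0.654% of gated NK cells in the knockout (exact binomial interval 0.499 to 0.841) and 0.747% in the control (0.591 to 0.932). Members were a smaller share of shallow cells. Of the third of gated cells with the fewest UMIs, 0.359% were members in the knockout and 0.402% in the control, against 0.818% and 1.26% of the third with the most. After each cell was thinned at random to 2000 UMIs, which left out 164 shallower knockout cells and 121 control cells, 35 of 9010 knockout cells (0.388%) and 26 of 10317 control cells (0.252%) met the rule. The order of the libraries turned with depth, and no difference in abundance is read from either pair of shares.

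The 6 rule genes were absent from most gated cells. Of these, 8491 in the knockout and 9060 in the control had no UMI of any of the 6 genes, and 574 and 1166 had a UMI of 1 gene. Just outside the threshold, 49 knockout cells and 134 control cells had UMIs of 2 genes. Just inside it, 21 knockout cells and 39 control cells had UMIs of 3. Cells with 4, 5 and 6 of the genes numbered 17, 14 and 8 in the knockout and 15, 13 and 11 in the control.

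Isg15 encodes a ubiquitin-like protein that is attached to other proteins during the interferon response. It had a UMI in 55 of 60 knockout members (median 4 UMIs per cell, highest 25) and in 65 of 78 control members (median 2, highest 14), against 3.79% and 4.47% of the other NK cells. Ifit1 and Ifit3 encode proteins that bind viral RNA or support that binding. Ifit1 was found in 48 knockout members and 55 control members, against 0.812% and 1.57% of the other NK cells, and Ifit3 in 48 and 66 members, against 1.35% and 3.08%. Rsad2 encodes viperin, an enzyme that makes a chain-terminating nucleotide. It was found in 37 knockout members and 31 control members, and these few cells held 71.6% of all Rsad2 UMIs of gated knockout cells and 58.6% of those of gated control cells. Usp18, which removes Isg15 from proteins and damps interferon receptor signalling, was found in 33 knockout and 49 control members. Oasl1, which represses translation of Irf7 in mouse cells, was found in 28 and 42. Ifit3 has a near-identical copy, Ifit3b, and reads of such copies may have been split or lost in counting.

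A gene can be described in cells that the other 5 genes chose, so that the gene itself had no part in the choice. In cells with UMIs of at least 3 of the other 5, Ifit1 had 842 CPM (counts per 1000000 UMIs) in the knockout and 303 CPM in the control, against 2.67 and 3.78 CPM in the rest of the gated cells. Each of the 6 genes was far higher in cells chosen by the others in both libraries. The log2 ratios lay between 5.87 (Oasl1, interval 5.11 to 6.58) and 8.30 (Ifit1, 7.95 to 8.66) in the knockout, and between 4.75 (Usp18, 4.34 to 5.14) and 7.09 (Rsad2, 6.57 to 7.60) in the control.

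Promoters of the genes that mark these cells are shown because many of them hold the letters of the interferon-stimulated response element. The letters searched were GAAA, any 2 bases and GAAA again, or TTTC, any 2 bases and TTTC for the other strand, in windows from 250 bases before to 50 bases after the RefSeq transcription start (build GRCm38.p6). Each sequence runs 5' to 3' on the gene's strand, and capitals mark every match. The windows are chr19:34640639-34640938 (plus strand) for Ifit1, chr19:34583279-34583578 (plus) for Ifit3, chr12:26456403-26456702 (minus) for Rsad2, chr4:156200769-156201068 (minus) for Isg15, chr5:92348840-92349139 (minus) for the chemokine gene Cxcl10 and chr16:10785487-10785786 (minus) for the signalling inhibitor Socs1.
Ifit1: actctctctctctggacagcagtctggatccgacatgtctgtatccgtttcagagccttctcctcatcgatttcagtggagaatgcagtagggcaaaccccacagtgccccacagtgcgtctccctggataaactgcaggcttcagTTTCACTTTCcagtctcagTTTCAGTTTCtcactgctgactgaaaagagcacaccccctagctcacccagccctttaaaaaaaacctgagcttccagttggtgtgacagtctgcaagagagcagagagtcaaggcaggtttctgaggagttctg
Ifit3: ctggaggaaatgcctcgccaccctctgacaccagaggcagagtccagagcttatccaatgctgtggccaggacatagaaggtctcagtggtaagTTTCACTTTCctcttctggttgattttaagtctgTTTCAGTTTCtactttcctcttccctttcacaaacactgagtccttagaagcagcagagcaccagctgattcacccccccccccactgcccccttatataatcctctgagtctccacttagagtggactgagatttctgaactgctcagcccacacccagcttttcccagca
Rsad2: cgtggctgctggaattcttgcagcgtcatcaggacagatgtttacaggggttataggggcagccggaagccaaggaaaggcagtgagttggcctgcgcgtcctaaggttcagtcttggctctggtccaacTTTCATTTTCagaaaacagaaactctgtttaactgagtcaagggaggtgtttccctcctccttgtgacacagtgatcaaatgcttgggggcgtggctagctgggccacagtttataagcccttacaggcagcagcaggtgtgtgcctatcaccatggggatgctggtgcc
Isg15: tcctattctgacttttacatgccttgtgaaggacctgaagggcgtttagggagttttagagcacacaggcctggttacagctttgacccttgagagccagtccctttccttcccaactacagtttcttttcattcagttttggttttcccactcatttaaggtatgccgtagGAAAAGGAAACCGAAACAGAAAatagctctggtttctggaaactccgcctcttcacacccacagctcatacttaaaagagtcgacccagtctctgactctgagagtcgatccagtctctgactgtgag
Cxcl10: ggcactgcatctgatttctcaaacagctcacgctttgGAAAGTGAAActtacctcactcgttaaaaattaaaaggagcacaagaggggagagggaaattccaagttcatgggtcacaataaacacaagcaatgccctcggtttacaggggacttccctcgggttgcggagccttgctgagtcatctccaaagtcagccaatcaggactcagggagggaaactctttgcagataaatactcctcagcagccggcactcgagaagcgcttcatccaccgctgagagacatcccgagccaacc
Socs1: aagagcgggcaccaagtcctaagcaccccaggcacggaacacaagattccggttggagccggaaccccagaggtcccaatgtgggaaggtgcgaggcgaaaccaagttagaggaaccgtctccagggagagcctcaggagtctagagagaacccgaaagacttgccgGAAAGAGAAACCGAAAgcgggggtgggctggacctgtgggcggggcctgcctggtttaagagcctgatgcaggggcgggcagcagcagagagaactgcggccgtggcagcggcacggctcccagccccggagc

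Ifit1 held 2 matches, which began 104 and 85 bases before the start, and Ifit3 held 2, at 156 and 122 bases. Rsad2 held 1, at 120 bases. In Isg15, 3 matches at 78, 72 and 66 bases overlapped each other, and in Socs1 2 at 83 and 77 bases overlapped. These form longer runs, with GAAA 4 times in Isg15 and 3 times in Socs1, each 2 bases apart. Cxcl10 held 1, at 213 bases. Oasl1 held none in its window, and Usp18 had no window in the table. A match was found in 1079 of 27025 promoter windows (3.99%) and in 176 of the 3440 windows of measured genes (5.12%). Of the genes at least 2-fold higher in members in both libraries, described next, 94 had a window and 42 of these (44.7%) held a match. The rule genes are counted there, with a match in 4 of their 5 windows. The match is a description of these letters and not of binding.

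The members differed from the other NK cells by a broad interferon-stimulated programme that went well beyond the 6 genes. Of 4303 measured genes (mean of member and other-cell CPM of at least 25 in both libraries), 111 were at least 2-fold higher in members in both libraries, which is 2.58%. Taken library by library, 198 passed that size in the knockout (4.6%) and 118 in the control (2.74%). Of the 111 genes, 78 stood in at least 1 of the lists of interferon genes, which held 125 of the 4303 measured genes. All 3 of these counts include the 6 rule genes that chose the cells. The held-out list of 55 interferon-stimulated genes, which leaves out the 6 rule genes, had 43 measured genes, of which 39 passed the size in both libraries. Held-out means only that the rule genes are left out. The list was chosen with earlier results of these data known and is no independent support. The list's median log2 ratio was 2.76 in the knockout and 2.29 in the control, against -0.073 and -0.056 over all measured genes. The 4 others were Uba7, the Isg15-activating enzyme (log2 0.29 in the knockout and 1.23 in the control), Ly6e (0.94 and 1.02), Epsti1 (0.85 and 0.55) and Sp100 (0.75 and 0.77). A gene scarce in the other NK cells could be measured only if it was higher in members, so the CPM limit fixed its passing. Oas3, for example, stood at 92.8 CPM in knockout members and 2.44 CPM in the other knockout NK cells. This limits all counts and medians of list genes here and below. Summed levels of a list use all its genes, measured or not.

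Summed over the held-out list, members had 13252 CPM in the knockout (12837 to 13677) and 13782 CPM in the control (13485 to 14084). The other NK cells had 3043 CPM in the knockout (3026 to 3061) and 3969 CPM in the control (3954 to 3984). The log2 ratio was 2.12 in the knockout (2.08 to 2.17) and 1.80 in the control (1.76 to 1.83). Cell by cell, the list took between 0.335% and 2.74% of a knockout member's UMIs (median 1.38%) and between 0.346% and 3.59% of a control member's (median 1.26%), against medians of 0.291% and 0.382% in the other NK cells. The ranges overlapped, but 50 of 60 knockout members and 59 of 78 control members lay above 99% of the other NK cells of their library.

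The held-out list was higher in each class of cells with more rule genes, with 1 exception among the highest classes. From 0 to 6 rule genes it stood at 2972, 3692, 5752, 10031, 12091, 16769 and 16283 CPM in the knockout and at 3869, 4372, 6216, 10253, 14365, 17034 and 22007 CPM in the control. The step between 2 and 3 genes was the widest up to the threshold in both libraries, although cells with 2 genes already lay above cells with none. In cells thinned to 2000 UMIs the list stood at 2997 CPM in knockout cells and 3965 CPM in control cells with none of the 6 genes, and at 17300 and 21115 CPM in those with at least 3.

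**Figure D1:**
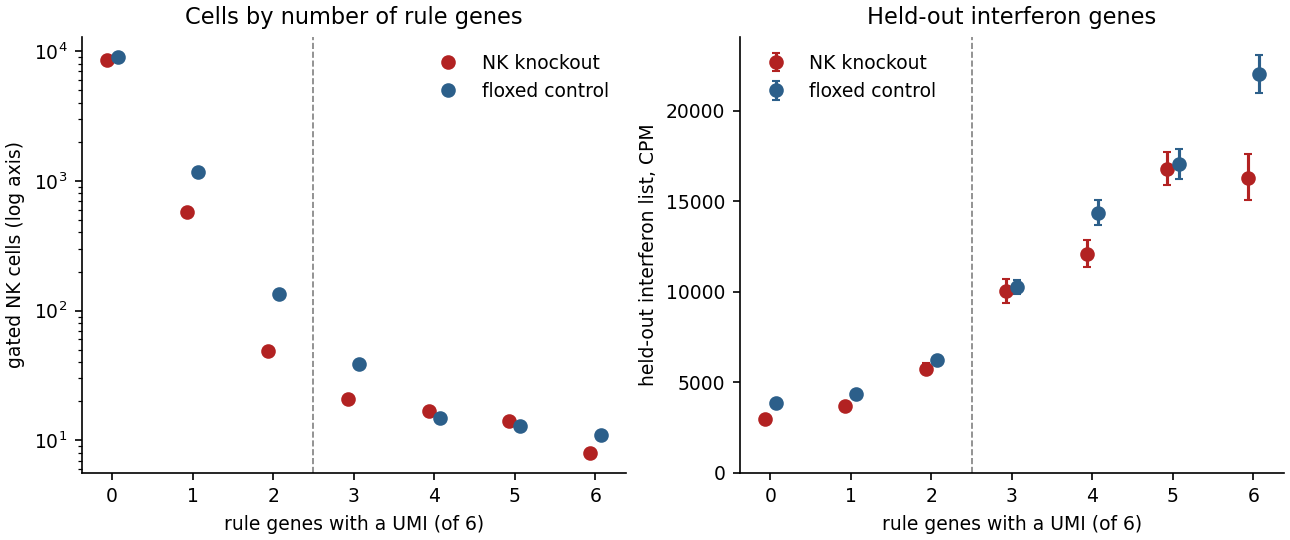
Gated NK cells (left, log axis) and the summed level of the held-out interferon list in CPM with 95% counting intervals (right), by how many of the 6 rule genes had a UMI in the cell, for the NK knockout and the floxed control library. The dashed line is the threshold: cells with 3 genes stood at 10031 CPM in the knockout and 10253 CPM in the control, those with 2 at 5752 and 6216 CPM.

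Among the direct antiviral effectors, 14 of 18 measured genes passed the size in both libraries. The Mx1 transcript stood at 182 CPM in knockout members and 2.44 CPM in the other knockout NK cells (log2 6.22, interval 5.71 to 6.72). It stood at 99.5 CPM in control members and 4.20 CPM in the other control NK cells (4.57, 4.13 to 4.97). Whether a working Mx1 protein is made was not measured. Isg20, an exonuclease, had log2 ratios of 5.92 in the knockout and 6.12 in the control. Cmpk2, a mitochondrial nucleotide kinase encoded beside Rsad2, had 5.51 and 4.22. Bst2, known as tetherin, which holds budding virus at the cell surface, had 3.59 and 3.64, and the receptor-transporting protein gene Rtp4 4.47 and 3.72. Their levels outside the members differed. Isg20 had a UMI in 28.3% of knockout members and 29.5% of control members, against 0.669% and 0.656% of the other NK cells, and Bst2 in 66.7% and 80.8% of members, against 9.92% and 18.7% of the other NK cells.

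The oligoadenylate synthetases, antiviral enzymes that sense double-stranded RNA, followed the same pattern. Oas3 stood at 92.8 CPM in knockout members and 2.44 CPM in the other knockout NK cells (log2 5.25), and at 96.1 CPM in control members and 5.07 CPM in the other control NK cells (4.25). Oas1a, which has close copies, had log2 ratios of 3.72 and 3.01. Further members of the IFIT family, Ifit2 (3.92 and 3.03) and Ifit1bl1 (4.65 and 3.04), were higher in both libraries.

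Sensors of viral nucleic acid were higher in members in 5 of 7 measured genes in both libraries. The RNA helicases Ifih1 (MDA5; log2 4.20 in the knockout and 3.55 in the control), Dhx58 (LGP2; 3.89 and 3.63) and Ddx58 (RIG-I; 2.49 and 1.49) all passed the size, as did Zbp1, a sensor of Z-form nucleic acid (3.36 and 2.60), and Mb21d1, the DNA sensor cGAS (2.59 and 1.10). In the p200 family of DNA-binding proteins all 9 measured genes passed, with log2 ratios between 2.08 and 6.79 in the knockout and between 1.75 and 6.15 in the control. Ifi211 was the highest of them in the knockout (6.79, against 5.98 in the control) and Ifi204 in the control (6.15, against 6.11 in the knockout). The p200 genes lie in a cluster of similar genes, and reads may be shared between them.

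Of the interferon-inducible GTPases, which take part in defence against intracellular pathogens, 11 of 12 measured genes passed the size in both libraries. Among them were Igtp (4.0 and 2.99), Irgm1 (3.28 and 2.37), Irgm2 (4.06 and 2.26) and Gbp9 (2.37 and 2.41). All 4 measured Schlafen genes passed, led by Slfn5 (6.23 and 5.65), as did all 4 measured genes of the PARP and DTX3L group, led by Parp9 (3.16 and 2.18). Several of the GTPase, Schlafen and TRIM genes have close copies, so that their single values are uncertain. In the TRIM family 4 of 8 passed, including Trim30a (2.95 and 2.49), a negative regulator of NF-kappaB in mouse. Of the enzymes that attach or remove Isg15 on target proteins other than Usp18, 3 of 4 passed, with Herc6, the ligase in mouse, at 2.99 and 2.89. Of the genes of antigen loading on MHC class I, 10 of 18 measured passed in the knockout, 4 in the control and the same 4 in both libraries, among them its transactivator Nlrc5 (1.94 and 1.42) and the peptide transporter Tap1 (1.68 and 1.06), and 17 of 18 lay above 0 in both, against 24.7% of all measured genes.

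Within the signalling pathway the transcription factor genes Stat2 and Irf9 were higher in members and the receptors were not. Stat2 stood at 68.7 CPM in knockout members and 12.6 CPM in the other knockout NK cells (log2 2.45, 1.73 to 3.09), and at 64.1 CPM in control members and 17.99 CPM in the other control NK cells (1.83, 1.33 to 2.30). Irf9 (1.90 and 1.22) was also higher, and so was Irf7, the amplifier of type I interferon production (2.67 and 2.68). The receptor chains Ifnar1 (-0.69 and 0.02) and Ifnar2 (0.03 and 0.13) and the kinases Jak1 (-0.33 and -0.18) and Tyk2 (0.06 and -0.08) were not 2-fold different. Ifngr1, the ligand-binding chain of the interferon gamma receptor, was lower by less than 2-fold in both libraries (-0.50, -0.74 to -0.28, and -0.43, -0.61 to -0.26). No UMI of any of 20 interferon alpha, beta, epsilon, kappa, zeta or lambda genes was found in any member of either library. A count of 0 allows up to 10.3 CPM in knockout members and 5.06 CPM in control members. In the other NK cells these genes had no UMI in the knockout and 2 in the control.

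**Figure D2:**
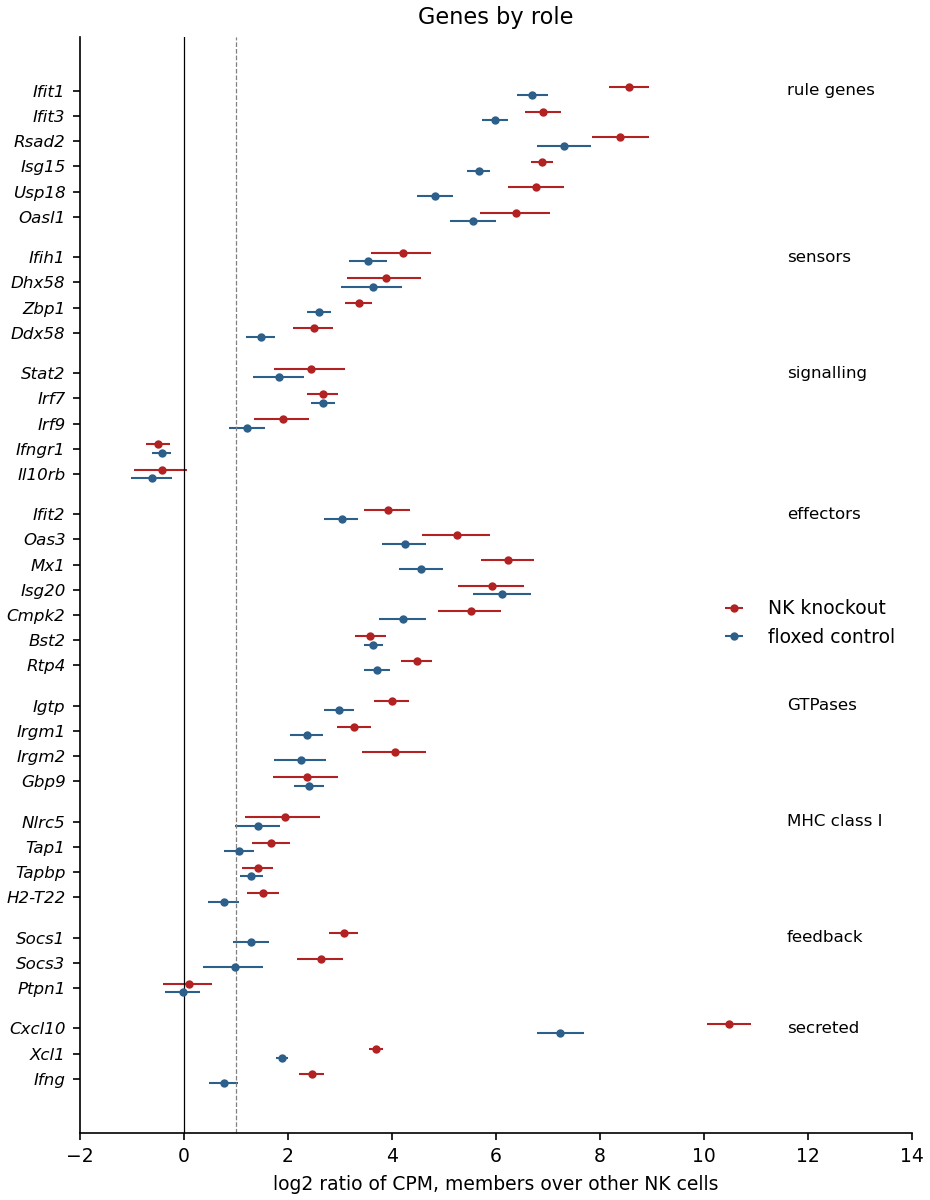
Log2 ratio of CPM in members over the other NK cells of the same library for genes grouped by role, with 95% counting intervals; red points are the NK knockout and blue points the floxed control, and the dashed line is the 2-fold size. Stat2, Irf7 and Irf9 lie right of that line in both libraries, while the receptor chains Ifngr1 and Il10rb lie left of 0.

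Genes of NK identity were at similar levels in members and other NK cells. None of 12 NK genes outside the gate passed the size in either direction, with log2 ratios between -0.43 and 0.17 in the knockout and between -0.47 and 0.30 in the control. Gzma, the granzyme that is abundant in mouse NK cells, stood at 10698 CPM in knockout members and 9702 CPM in the other knockout NK cells, and at 8334 CPM in control members and 7946 CPM in the other control NK cells. Markers of late NK maturation leaned lower in members: 11 of 12 measured genes lay below 0 in both libraries, against 40.5% of all measured genes, with medians of -0.71 in the knockout and -0.39 in the control. S1pr5, the receptor with which mature NK cells leave lymphoid organs, had -1.19 (-1.99 to -0.49) and -0.55 (-0.94 to -0.19), and Cma1, a chymase of mature NK cells, had -0.83 (-1.35 to -0.35) and -0.88 (-1.29 to -0.50). None of them passed the size in both libraries; across all measured genes 166 were at least 2-fold lower in knockout members (3.86%), 25 in control members (0.581%) and 7 in both (0.163%). The 7 were Angpt1, Ctla2b, Dpysl2, Fbxo9, G0s2, Gxylt1 and Retreg2. They rested on few UMIs, 3 to 7 per gene in knockout members and 10 to 14 in control members. In 6 of them both intervals lay below 0, and the knockout interval of Gxylt1 held 0 (-2.48 to 0.09).

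Several genes outside the interferon lists were also higher in members in both libraries, 33 of the 111, with a median log2 ratio of 2.17 in the knockout and 1.64 in the control. Granzyme B, a protease that kills target cells, stood at 1698 CPM in knockout members and 284 CPM in the other knockout NK cells (Gzmb, log2 2.58, 2.45 to 2.71), and at 954 CPM in control members and 271 CPM in the other control NK cells (1.82, 1.69 to 1.94). Its partner perforin was not higher (Prf1, -0.19 and -0.51). Of 16 measured genes of the cytotoxic list, Gzmb was the 1 that passed the size in both libraries. Gadd45g, a stress-response gene that aids p38 signalling in T cells, had 5.05 and 2.48, and Ppa1, an inorganic pyrophosphatase, had 4.49 and 2.68. Further genes of this group, named here after their values were seen, were Phf11a (4.0 and 2.93), Phf11b (3.25 and 2.44), the nuclear body gene Pml (2.63 and 2.23), the inflammatory caspase Casp4 (2.47 and 2.41), Nampt (2.34 and 2.46), the NF-kappaB co-regulator Bcl3 (2.91 and 1.53) and the serpin Serpina3g (2.0 and 1.82). Of the 30 with a promoter window, 6 (20.0%) held the response element letters, against 36 of 64 (56.2%) of the list genes, rule genes included.

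**Figure D3:**
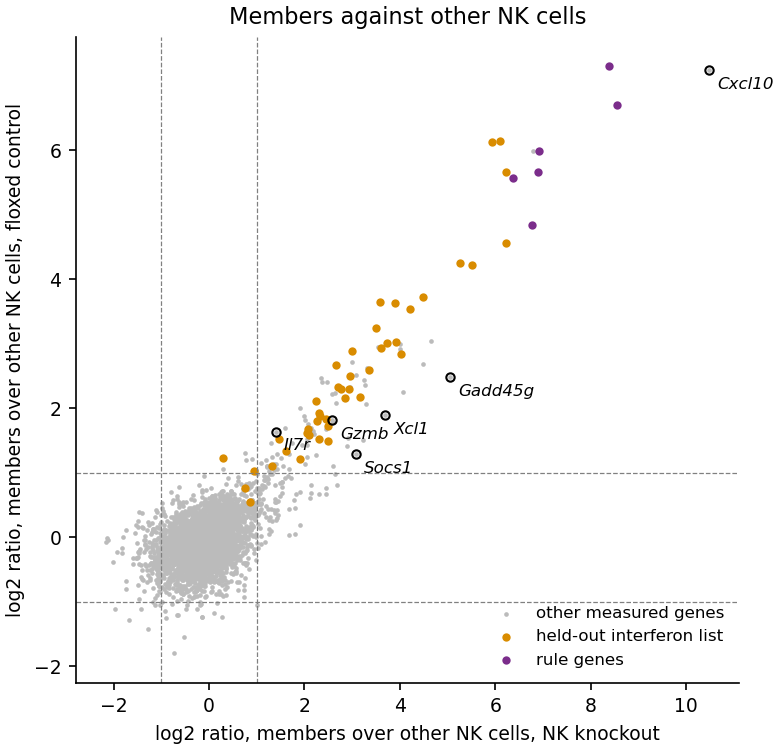
Log2 ratio of members over other NK cells in the NK knockout (horizontal) and the floxed control (vertical) for each of 4303 measured genes. Dashed lines mark 2-fold; 39 of 43 measured genes of the held-out interferon list lie beyond 2-fold on both axes. Cxcl10, which is not in that list, lies farthest to the right, at 10.47.

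Feedback inhibitors of interferon signalling were mixed. Socs1, which blocks Jak kinases, stood at 381 CPM in knockout members and 45.4 CPM in the other knockout NK cells (log2 3.07, 2.78 to 3.35), and at 123 CPM in control members and 50.3 CPM in the other control NK cells (1.29, 0.94 to 1.63). Its relative Socs3 had 2.63 in the knockout and 0.98 in the control, and the phosphatase gene Ptpn1 0.09 and -0.03, so that of 6 measured genes of this list Socs1 alone passed the size in both libraries. Of 6 measured interferon regulatory factors, Irf7 and Irf9 passed in both; Irf1 (1.36 and 0.43) and Irf8 (1.38 and 0.38) passed in the knockout. Of 8 measured surface and secreted products of interferon 5 passed in both, among them Cd274, the inhibitory ligand PD-L1 (2.14 and 1.69).

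Other programmes of NK cells showed few differences of that size. Of 12 genes of less mature NK cells 2 passed in both libraries, Il7r and Xcl1. None of 8 cytokine receptor, 11 immediate early, 8 heat shock or 5 cell division genes was at least 2-fold higher in both. Over all measured genes the share was 2.58%, from which 0 in such short lists cannot be told apart. Below that size, 7 of the 8 heat shock genes lay above 0 in both, against 24.7% of all genes. Of the immediate early genes 8 of 11 lay below 0 in both, against 40.5%. Of the cytokine receptor genes 4 lay above 0 and 3 below 0 in both. The cell division list summed to -0.63 (-0.82 to -0.45) in the knockout and -0.18 (-0.29 to -0.06) in the control. The division marker Mki67 had a UMI in 2 knockout and 2 control members. Of the prostanoid genes, Ptger4, the EP4 receptor of prostaglandin E2, stood at 65.3 CPM in knockout members and 30.7 CPM in the other knockout NK cells (log2 1.09), and at 43.8 CPM in control members and 46.9 CPM in the other control NK cells (-0.10). The member levels rest on few UMIs. Without the highest cell of each library, Ptger4 had 17 UMIs in knockout members and 23 in control members.

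Chemokine and cytokine transcripts of the members included Cxcl10, the ligand of Cxcr3 that draws T and NK cells, and the gene farthest from the other NK cells in the knockout. It stood at 1918 CPM in knockout members (1762 to 2084) and 1.35 CPM in the other knockout NK cells, and at 167 CPM in control members (136 to 203) and 1.11 CPM in the other control NK cells. The log2 ratios were 10.47 (10.06 to 10.91) and 7.24 (6.78 to 7.69). Knockout members held 558 Cxcl10 UMIs and all other gated knockout cells 52, and control members held 99 and the other control cells 73. Xcl1, a chemokine that draws cross-presenting dendritic cells, had 1870 CPM in knockout members and 145 CPM in the other knockout NK cells (log2 3.69), and 1067 CPM in control members and 287 CPM in the other control NK cells (1.89). Ifng, the gene of interferon gamma, had log2 ratios of 2.46 (2.21 to 2.70) and 0.76 (0.48 to 1.03).

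Cxcl10 was carried by some members and not by others. A UMI was found in 28 of 60 knockout members (46.7%) and in 13 of 78 control members (16.7%), against 29 of 9114 (0.318%) and 39 of 10360 (0.376%) of the other NK cells. Among the cells with it, knockout members had 1 to 94 UMIs (median 9.5) and control members 1 to 58 (median 3). In control members 1 cell held 58.6% of the 99 UMIs, and in knockout members the highest cell held 16.8% of 558. At 2000 UMIs per cell, 25 of the 60 knockout members and 11 of the 78 control members still showed it, against 0.190% and 0.166% of the other NK cells. The share was higher in cells with 4 or more rule genes: it was 19.0%, 64.7%, 57.1% and 62.5% of knockout cells with 3, 4, 5 and 6 of them, and 2.56%, 20.0%, 23.1% and 54.5% of control cells.

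Members with Cxcl10 stood apart from members without it in a set of further genes, a split made after the values were seen. Xcl1 had 3603 CPM in knockout members with Cxcl10 and 546 CPM in those without, and 2674 and 748 CPM in control members with and without it. Gadd45g had 1317 and 152 CPM in knockout members with and without Cxcl10, and 417 and 62.6 CPM in control members. Ifng had 960 and 145 CPM in the knockout, and 386 and 150 CPM in the control. Socs1 had 690 and 145 CPM in the knockout, and 254 and 97.0 CPM in the control. The transcription factor genes Batf (429 and 30.3 CPM in the knockout, 132 and 34.3 CPM in the control) and Irf8 (1222 and 255 CPM, 559 and 343 CPM) and Gzmb (2691 and 939 CPM, 1841 and 778 CPM) had the same order. Gzma, by contrast, was nearly level, at 10857 and 10577 CPM in knockout members with and without Cxcl10, and at 9661 and 8070 CPM in control members. The held-out interferon list was also higher with Cxcl10, at 17342 and 10128 CPM in the knockout and at 21487 and 12251 CPM in the control.

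**Figure D4:**
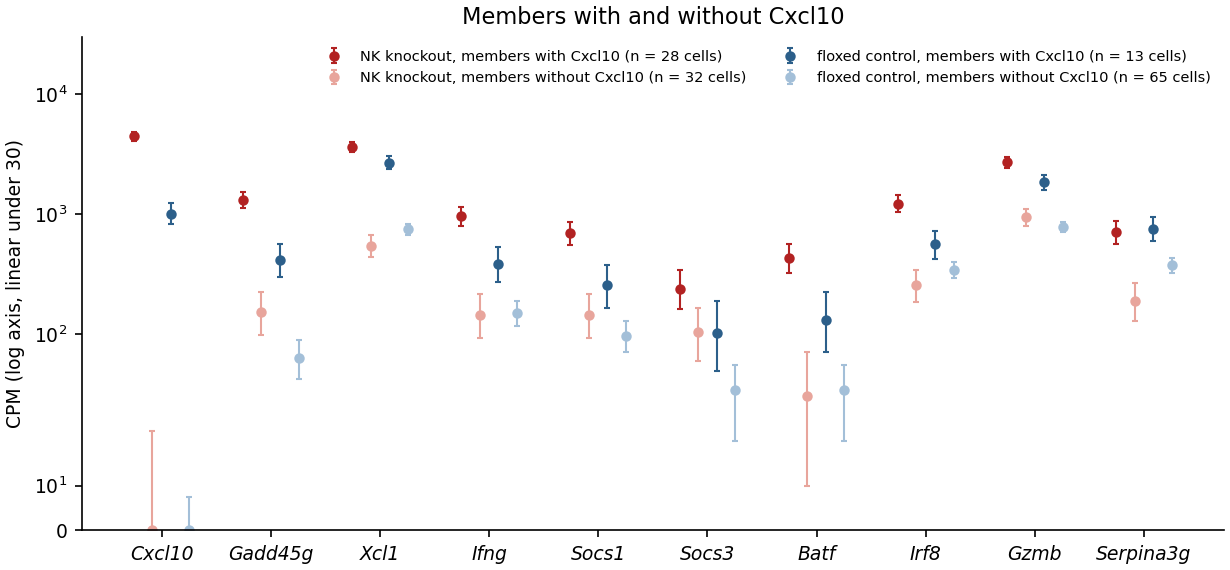
Level in CPM (log axis above 30, linear below) with 95% counting intervals for 10 genes in members with and without a Cxcl10 UMI, in the NK knockout (red) and the floxed control (blue). Xcl1, Gadd45g, Ifng, Socs1, Batf, Irf8 and Gzmb were higher with Cxcl10, in 28 knockout members against 32 without it and in 13 control members against 65.

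The knockout and control members were then set against each other, beside the same ratio in the other NK cells. The held-out list differed little between members (log2 -0.057, -0.11 to -0.0012) while in the other NK cells it was lower in the knockout (-0.38). Of 4618 genes measured in members, 173 were at least 2-fold higher in knockout members (3.75%) and 421 at least 2-fold lower (9.12%). The counting interval left out 0 for 127 of the 173 and 316 of the 421. When this comparison was run on simulated data of 4303 genes, 4.12% of the unchanged genes passed the size. That share was for a different set of genes and not split by direction, so it is no chance rate for either count. In the other NK cells, 133 of the 173 were above 0, against 42.3% of all 4618 genes, and 392 of the 421 below 0, against 57.7%. Past the 2-fold size there in the same direction were 16 of the 173 and 62 of the 421, against 0.498% and 2.32% of all genes. Within the held-out list 1 gene was at least 2-fold higher and 3 lower, of 48 measured.

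Cxcl10 had the widest gap of all named genes that was not shared by the other NK cells. Its level in members was 1918 CPM in the knockout and 167 CPM in the control, log2 3.52, against 0.28 in the other NK cells. Without the highest cell of each library it was 1631 and 70.1 CPM (log2 4.54, 4.08 to 5.04). Gadd45g (656 and 121 CPM in knockout and control members, log2 2.44, against -0.14 in the other NK cells), Batf (203 and 50.6 CPM, 2.0 against 0.21), Socs3 (162 and 45.5 CPM, 1.83 against 0.17), Socs1 (381 and 123 CPM, 1.63 against -0.15) and Ifng (498 and 189 CPM, 1.40 against -0.30) showed the same kind of gap. Of these genes, Gadd45g, Batf, Socs1 and Ifng also stood higher in members with Cxcl10 in both libraries. Members with Cxcl10 made up 46.7% of knockout members and 16.7% of control members. The part of that share in the differences was not tested. Among the 2 knockout and 3 control members without a UMI of any other-lineage gene, Cxcl10 (log2 -0.22) and Socs1 (-0.81) were lower in the knockout.

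Among the rule genes, Isg15 was higher in knockout members (1193 CPM, against 406 CPM in control members; log2 1.55), as were Rsad2 (347 and 131 CPM, 1.40) and Ifit1 (780 and 317 CPM, 1.30). Ifit3 (0.36), Usp18 (0.41) and Oasl1 (0.10) were not 2-fold different. The rule chose the members of both libraries by UMIs of these same genes, so their levels in members depend on the choice. Knockout members had a median of 4192.5 UMIs per cell, against 7229 in control members, so the rule was applied at unequal depth. The differences in the rule genes are therefore a description, and the part of depth and of the choice in them was not tested. When members were chosen again in cells thinned to 2000 UMIs, the log2 ratios were 0.74 for Isg15, 0.65 for Rsad2, 0.54 for Ifit1, 3.42 for Cxcl10, 1.83 for Gadd45g, 1.82 for Batf, 1.89 for Socs3, 1.81 for Ifng and 1.09 for Socs1, and the held-out list stood at -0.29. When the members chosen on all UMIs were kept and their levels read at 2000 UMIs per cell, Isg15 had 1.45, Rsad2 1.45, Ifit1 1.03, Cxcl10 4.07, Gadd45g 2.69, Batf 2.03, Socs3 1.46, Ifng 2.05 and Socs1 1.56. Isg15, Rsad2 and Ifit1 were thus under the 2-fold size in the first of these settings and past it in the second.

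**Figure D5:**
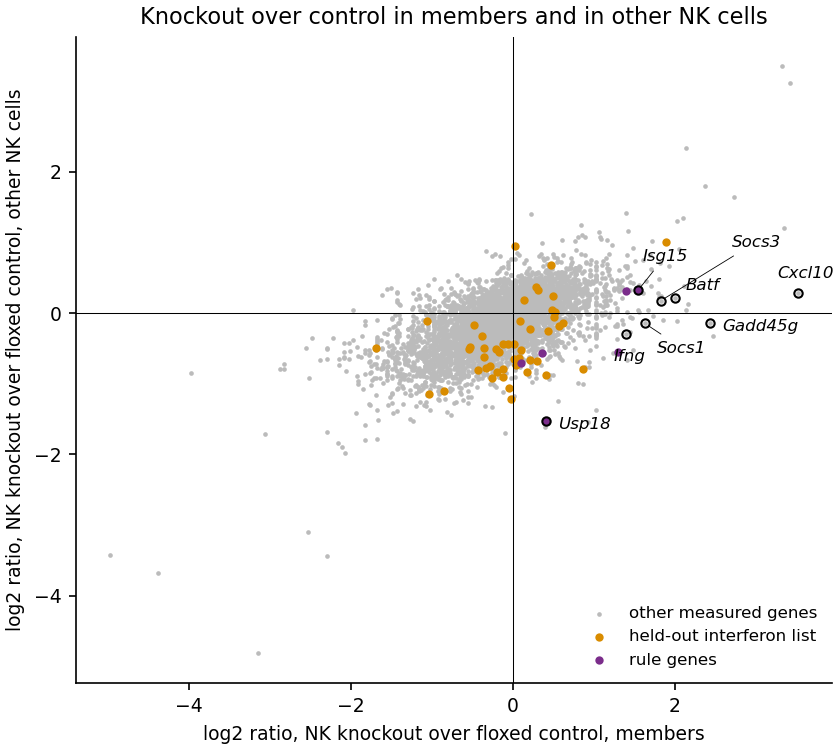
Log2 ratio of NK knockout over floxed control in members (horizontal) and in the other NK cells (vertical) for each of 4618 genes. Cxcl10, Gadd45g, Batf, Socs3, Socs1 and Ifng lie far right while near 0 on the vertical axis, and the grey points spread along both axes together.

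Heat shock genes, which encode chaperones, were lower in knockout members in 10 of 11 measured genes, against 9.12% of all genes, with a summed log2 difference of -1.55 (-1.66 to -1.43) in members and -1.26 in the other NK cells. Hsp90aa1 stood at 296 CPM in knockout members and 863 CPM in control members (-1.55), against -1.31 in the other NK cells. Their part in the other differences between the libraries was not tested. Xcl1 was 0.81 higher in knockout members on the log2 scale while it was 0.99 lower in the other knockout NK cells, and the early activation gene Cd69 was 0.87 higher in members and 1.0 lower in the others. Such opposite signs were not tested. Dgkz, a diacylglycerol kinase that damps antigen receptor signals in T cells, stood at 17.2 CPM in knockout members and 101 CPM in control members (-2.56), against -0.49 in the other NK cells, on 5 and 60 UMIs.

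Markers of other cell types were partly at 0 and partly found in a few members. No member of either library had a UMI of Siglech, the defining gene of plasmacytoid dendritic cells, of the macrophage genes Csf1r, Adgre1 and Cd5l, of the dendritic genes Xcr1, Clec9a and Flt3, of the B cell gene Ms4a1, or of Cd4, Cd8a, Ly6g and Csf3r. Over the macrophage list of 8 genes members held 4 UMIs in 4 knockout cells and 9 UMIs in 5 control cells, and over the plasmacytoid list of 6 genes 0 UMIs in the knockout and 11 in 1 cell of the control (18.5 CPM in control members and 8.49 CPM in the other control NK cells, log2 1.13, 0.12 to 1.98). Over the dendritic list of 6 genes they held 22 UMIs in 6 knockout cells, 13 of them in 1 cell, and 4 UMIs in 4 control cells. That list stood at 75.6 CPM in knockout members and 20.1 CPM in the other knockout NK cells (log2 1.91, 1.23 to 2.52), and at 6.74 CPM in control members and 8.21 CPM in the other control NK cells (-0.28, -2.16 to 1.08). The B cell list (24 UMIs in 21 knockout cells, 92 in 42 control cells) was mostly Ighm, the granulocyte and monocyte list (101 in 40 cells, 313 in 66 cells) Ccr2 and Ms4a6c, and the T cell list (185 in 51 cells, 317 in 67 cells) Trbc1 and Trbc2, and none of these 5 genes passed the 2-fold size between members and other NK cells. The platelet list had 2 UMIs in knockout members and 3 in control members, and the erythroid list 4 and 14. Il7r, which marks type 1 innate lymphoid cells and some less mature NK cells, was higher in members in both libraries (log2 1.39 and 1.64), from 49 UMIs in 11 knockout members and 55 in 9 control members; the whole list of 7 genes for these cells had UMIs in 18 knockout members and 16 control members and was higher in members by 1.18 (0.85 to 1.49) in the knockout and 1.06 (0.69 to 1.41) in the control on the log2 scale. Il7r made up 49 of the 83 UMIs of that list in knockout members and 55 of the 67 in control members. In the other NK cells it made up 2472 of 4854 in the knockout and 1963 of 3562 in the control. The list sum in members was thus mostly Il7r, the 1 measured gene of the list, and more so in the control than in the knockout. Whether the other genes of the list also differed cannot be read from the sum and was not tested. The part of these cell types in the results was not tested. Among the 38 knockout and 51 control members without a UMI of any of the 50 genes of these lists that under 5% of other NK cells hold, the held-out list was higher than in other NK cells by 2.21 in the knockout and 1.81 in the control on the log2 scale.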

How the data were processed

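Single-cell RNA was measured in 2 droplet libraries, 1 per genotype, each from pooled spleen NK cells of 2 mice. The deposited files hold whole-number counts of UMIs per gene and barcode (31053 genes), not normalized; the submitters' processing notes name Cell Ranger 3.0.0, STAR, Seurat and the build GRCm39, with no role given. Library totals were 42795121 UMIs in the knockout and 69853026 in the control.

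Barcodes were gated and members chosen by the rule given at the start of the results. The members and gene lists were chosen with earlier results of these data known. UMIs were summed over members and over the other NK cells of each library and scaled to CPM. A gene was measured with a mean of both sums' CPM of at least 25 in both libraries, or, for knockout over control, with mean member CPM of at least 25, and passed the size at a log2 ratio of at least 1 or at most -1. With 1 library per group no test was made. Intervals are exact 95% binomial (Clopper-Pearson for shares) or Poisson intervals of counting error; at a count of 0 the limit is 3 counts.

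Genes are named by a fixed rule: up to 5 measured genes per list with the largest mean ratio, the 15 highest and 10 lowest means, the 8 highest and 8 lowest differences between members and other NK cells in the knockout over control ratio among genes with at least 100 CPM, the rule genes, Ptger3 and Ncr1; others are illustrations chosen after their values were seen. Alternatives were filters at 10 and 50 CPM and none, other rule thresholds, thinning to 2000 UMIs, stricter cells, median-of-ratios scaling, means over cells, depth weighting and removal of cells with other-lineage UMIs. The procedure was tested on simulated data. The scripts ran in Python 3.11.15 with pandas 2.3.3, numpy 2.4.6 and scipy 1.17.1, and figures were drawn with matplotlib 3.10.9. No doublets were removed. Values of some genes are not reported here.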

Additional observations from a re-analysis of the deposited data

Results flagged for a closer look

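Cells outside the NK gate also carried at least 3 of the 6 rule genes. There were 5 such cells in the knockout library (0.589% of 849 filtered cells outside the gate, exact interval 0.191 to 1.37) and 4 in the control library (0.816% of 490, 0.223 to 2.08). They were flagged because they lie in cells that no comparison used. A cell could miss the gate for more than 1 reason: 3 knockout cells and 2 control cells had too few NK receptor UMIs, 2 and 3 had Cd3e, and 2 and 1 had macrophage or MHC class II UMIs.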

How the results depend on the processing

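No paired analysis was possible because each genotype has 1 library, and no replicate could be left out. The main values were shares of 0.654% in the knockout and 0.747% in the control, held-out ratios of 2.12 and 1.80 (log2), 111 genes higher and 7 lower in both libraries, and for knockout over control members 173 higher, 421 lower and a held-out ratio of -0.057. The cause of each change was not tested. At 10 CPM knockout over control gave 515 higher and 923 lower, and 44 genes were lower in both libraries. At 50 CPM it gave 62 and 184, and 0 were lower in both. With no filter it gave 1190 and 1190, with 292 higher and 121 lower in both. With 2 of 6 rule genes the shares were 1.19% and 2.03%, the held-out ratios 1.66 and 1.20, 63 genes were higher and 0 lower in both, and knockout over control gave 78, 229 and 0.081; Lamb3 reversed to -0.070. With 4 of 6 the shares were 0.425% and 0.374%, the ratios 2.26 and 2.11, 23 were lower in both, and knockout over control gave 260 higher and -0.23. With 5 or 6 it gave 474 higher and -0.21; Klrg1 reversed to 1.60 and Serpinb9b to 0.34. On thinned counts the shares were 0.388% and 0.252%, the ratios 2.50 and 2.39, 212 were higher and 126 lower in both, and knockout over control gave 627, 1066 and -0.29; Klrg1 reversed to 0.57 and Ptk2b to 1.89. With members from all UMIs at 2000 UMIs it gave 444 and 703. With stricter cells the control ratio was 1.85 and knockout over control -0.12. With median-of-ratios scaling the ratios were 2.20 and 1.85, 4 were lower in both, and knockout over control gave 0.030. Means over cells gave 2.19 and 1.89, and depth weighting 4 lower in both; that weighting gives no value for knockout over control. Without any other-lineage UMI, which left 2 knockout and 3 control members, the control share was 1.85%, the ratios 1.41 and 2.51, 226 were higher and 12 lower in both, and knockout over control gave 202 lower and -1.50; reversed were Tapbp in the control (-0.26), Stmn1 in the knockout (0.45), Lamb3 in the control (0.81) and, for knockout over control, Ifit1 (-0.90), Isg15 (-1.07), Irgm1 (-2.29), Socs1 (-0.81), Cxcl10 (-0.22), Fosb (0.51) and Pcna (0.51). Without rarer other-lineage and innate lymphoid UMIs, an alternative chosen after seeing the data, the knockout ratio was 2.21 and knockout over control 0.0048. A CPM filter cannot change a single gene's ratio; over single genes under the other alternatives, 4294 values stayed, 891 moved and 15 reversed.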

Other observations

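Among the other NK cells, 29 in the knockout and 39 in the control had a Cxcl10 UMI although fewer than 3 rule genes were detected. Their held-out interferon list stood at 4265 CPM in the knockout and 4303 CPM in the control, against 3043 and 3969 CPM in all other NK cells. Xcl1 stood at 365 CPM in these knockout cells and 1581 CPM in these control cells, Ifng at 91.2 and 277 CPM, and Gadd45g at 42.1 and 30.7 CPM. Members with Cxcl10 had 3603 CPM of Xcl1 in the knockout and 2674 CPM in the control. These values are given without a test.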
